A study of Mus musculus with 4 samples.

Results

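Among the sites that the glucocorticoid receptor (GR) occupied after 1 h of corticosterone, 695 of 5638 (12.3%) already held 18 or more raw tags in the library from untreated cells, and these are called high-control sites. They were chosen by that tag count, which the caller reported as the control value of each peak; the other 4943 sites, with 17 or fewer, are called low-control sites. Receptor binding was mapped by ChIP-seq, the sequencing of DNA fragments precipitated with GR, in the mouse line 33AP1C9, which descends from C127 cells of mammary epithelial origin. According to the labels the cells in all groups carry an integrated MMTV-pp7 reporter, a hormone-responsive viral promoter that drives a transcript with pp7 sites, and they express a PP7 coat protein fused to GFP. Cells were kept in medium with charcoal-treated serum and then left untreated (0 h) or given 600 nM corticosterone, the main glucocorticoid of rodents, for 1 h or 12 h. There was 1 library per condition, so no comparison between conditions has a replicate check, and no p-value is given for any of them. Positions are in mm10. The 3 libraries held 79203826 (untreated), 90556119 (1 h) and 97749688 tags (12 h), and a normalised tag count is the count in a peak scaled to a library of 10000000 tags.

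GR is held in the cytoplasm by HSP90 chaperones until a glucocorticoid binds it, after which it enters the nucleus and binds DNA, mostly at enhancers far from gene starts and often where chromatin is already accessible. Its preferred DNA element is a pair of hexamers, AGAACA and TGTTCT, 3 bases apart, and AP-1 factors, which bind TGANTCA, are frequent neighbours. A ChIP library also holds background fragments from all of the genome, so tags in a window need not come from bound receptor.

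The label given to these sites, a high signal before hormone, was checked first. The untreated library had 1 called peak, on chromosome X, where no high-control site lay. The high-control sites held 18 to 39 raw tags without hormone, with a median of 20, or 2.52 normalised tags. The low-control sites held a median of 10 tags, or 1.26 normalised tags, and the caller's average for a window of 282 bp was 10.8. For comparison, the local background of the 1 h library was taken from the deposited fold of each peak over its surrounding 10 kb. It came to a median of 2.175 normalised tags per window at the high-control sites and 1.55 at the low-control sites. Listing needed a fold of 6 over that region, so sites with few 1 h tags were listed only where its background was low. At like 1 h tags, in 10 strata, the median was higher at the high-control sites in each. It was 1.77 against 1.55 in the weakest stratum and 3.13 against 2.89 in the strongest. No high-control site was called as a peak without hormone, so they are named here by their control count. Their untreated level of 2.52 was set by the choice of sites with 18 or more tags. Placing it beside the 2.175 around them at 1 h therefore cannot check the label. A single count is also imprecise: the exact Poisson 95% interval of 18 tags runs from 10.7 to 28.4 tags. Such intervals cover counting error only. Just inside the limit, the 135 sites with 18 tags had a median of 24.7 normalised tags at 1 h. Just outside it, the 198 sites with 17 tags had a median of 20.8.

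Few of these sites lay at a gene start, and the sequences of those that did are the only ones of the class that the reference used here holds. Of the high-control sites 6 (0.863%) overlapped a promoter window of the RefSeq table (GRCm38.p6), which holds 300 bases per gene start, from 250 bases before it to 50 after. Among low-control sites 84 did (1.70%). Both shares include the sites of 1 chromosome for which the table holds no start. They were not taken at like tags and have no interval, so no difference is read from them. The 4 windows that a site covered most, picked for that after their values were seen, are given over the part inside the peak, on the gene's strand, with GR hexamers (AGAACA or TGTTCT) and AP-1 motifs (TGANTCA, on both strands) in capitals. Tmem167b encodes a small transmembrane protein, and the other 3 are long non-coding RNA genes.
Tmem167b, chr3:108562528-108562716, minus strand: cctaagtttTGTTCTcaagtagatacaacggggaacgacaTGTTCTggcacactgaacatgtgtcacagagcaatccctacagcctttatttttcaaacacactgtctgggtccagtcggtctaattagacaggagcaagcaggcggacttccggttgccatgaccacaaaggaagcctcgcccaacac
4930471E19Rik, chr10:120636078-120636357, minus strand: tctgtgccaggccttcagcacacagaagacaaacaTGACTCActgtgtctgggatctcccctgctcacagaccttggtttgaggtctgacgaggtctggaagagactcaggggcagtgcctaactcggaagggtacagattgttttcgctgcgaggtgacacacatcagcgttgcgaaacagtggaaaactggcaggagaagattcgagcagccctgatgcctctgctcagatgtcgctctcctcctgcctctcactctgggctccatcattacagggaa
Gm42190, chr3:19953960-19954204, minus strand: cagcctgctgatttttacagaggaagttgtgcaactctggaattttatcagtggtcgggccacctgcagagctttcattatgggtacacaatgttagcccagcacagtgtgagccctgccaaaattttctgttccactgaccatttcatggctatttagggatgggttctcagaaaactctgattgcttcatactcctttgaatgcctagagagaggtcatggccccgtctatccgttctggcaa
Gm32011, chr15:31091970-31092216, plus strand: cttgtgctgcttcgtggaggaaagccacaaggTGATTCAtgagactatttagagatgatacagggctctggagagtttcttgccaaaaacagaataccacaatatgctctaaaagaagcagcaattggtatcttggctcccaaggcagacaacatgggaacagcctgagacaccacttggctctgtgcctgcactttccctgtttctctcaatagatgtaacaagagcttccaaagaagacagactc

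The part of the Tmem167b promoter inside the peak held 2 hexamers in the TGTTCT orientation, and the parts of 4930471E19Rik and Gm32011 held 1 AP-1 motif each. The part of the Gm42190 promoter held neither. No window overlapped by a high-control site held the complete element of AGAACA and TGTTCT 3 bases apart. The element was rare in all windows: 1 of the 94 overlapped by a low-control site held it, and 3 of all 32851. Over the whole 300 bases, a hexamer on either strand was present in 1 of the 6 windows, in 28 of the 94 windows overlapped by a low-control site (29.8%) and in 19.0% of all 32851 windows. An AP-1 motif was present in 2 of 6, in 18 of 94 (19.2%) and in 7.81%. These are matches of letters, counted in few windows.

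The 4 sites differed in strength. The 4930471E19Rik site held 18 raw tags (2.27 normalised) in untreated cells, 208 normalised tags at 1 h and 124 at 12 h. The Gm42190 site held 26 raw tags, then 89.8 and 101 normalised tags. Both lay above the upper quartile of the class at 1 h, which was 45.4. The Tmem167b site held 33 raw tags (4.17 normalised) and 37.0 normalised tags at 1 h, and the Gm32011 site held 20 raw tags and 26.9 normalised tags at 1 h. Neither was listed at 12 h.

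The high-control sites were spread very unevenly over the chromosomes. Chromosomes 3, 7, 10 and 15 held 349 of the 695 (50.2%), against 18.3% of the low-control sites. On chromosome 15, 91 of 264 sites at 1 h were high-control (34.5%, Wilson 95% interval 29 to 40.4%). On chromosome 3 it was 102 of 337 (30.3%, 25.6 to 35.4%), on chromosome 10 it was 83 of 296 (28.0%, 23.2 to 33.4%) and on chromosome 7 it was 73 of 354 (20.6%, 16.7 to 25.1%). Chromosome 12 had none among 200 sites (upper Wilson limit 1.89%), chromosome X none among 134 (2.79%) and chromosome 14 had 2 among 171 (1.17%). The remaining 13 chromosomes lay between 4.85% and 13.4%. The intervals of chromosomes 3, 7, 10 and 15 did not overlap those of chromosomes 12, 14 and X. That of chromosome 7 did overlap those of chromosomes 4 (10.1 to 17.6%) and 19 (8.3 to 18%). Their spans treat sites as independent, and neighbouring sites are not.

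**Figure D1:**
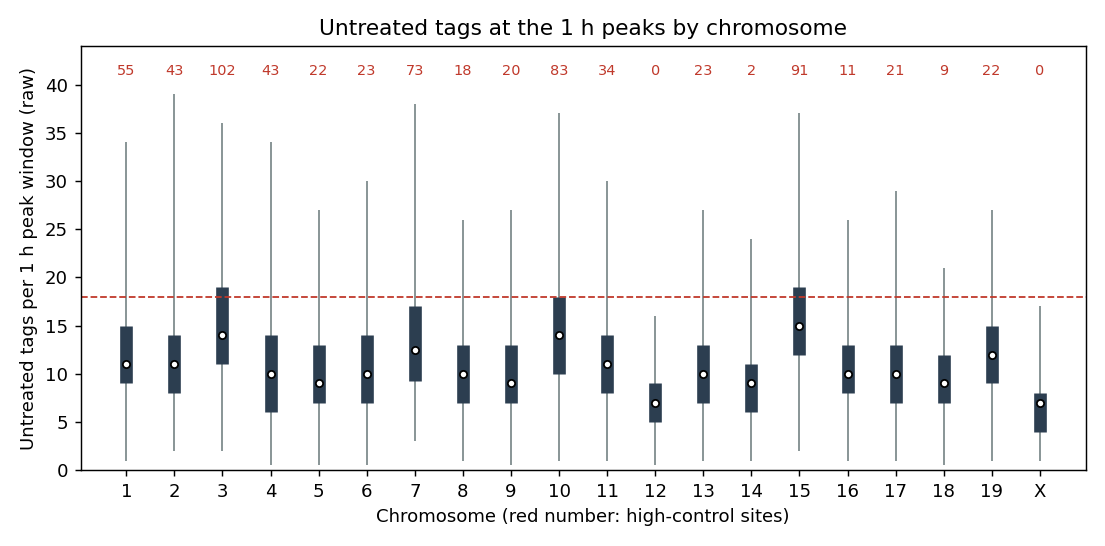
Raw tags of the untreated library in the windows of the 1 h peaks, by chromosome. Thin lines run from the lowest to the highest site, thick bars span the quartiles, circles are medians, the dashed line is the limit of 18 tags and red numbers count the high-control sites. The medians run from 7 tags on chromosomes 12 and X to 15 tags on chromosome 15.

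The median of the untreated counts, and not only their upper end, differed between these chromosomes and those with few high-control sites. The median over all 1 h sites was 15 tags on chromosome 15, 14 on chromosomes 3 and 10 and 12.5 on chromosome 7, against 7 on chromosomes 12 and X and 9 on chromosome 14. Chromosome 7 was close to chromosome 19, where the median was 12 tags and 22 of 178 sites were high-control (12.4%). The local background in the treated libraries was ordered alike. In the 1 h library its median was 2.173 normalised tags per window on chromosome 15, 2.15 on chromosome 10, 2.12 on chromosome 3 and 1.86 on chromosome 7, and 1.08 and 1.01 on chromosomes 12 and X. At the 12 h peaks it was 2.38, 2.26, 2.23 and 1.95, and 1.11 and 1.07. Across the 20 chromosomes with peaks, the share of high-control sites and the local background at 1 h had a Pearson correlation of 0.95 and a Spearman correlation of 0.96. Without the 2 chromosomes farthest from the median share Pearson's value was 0.95. For the 12 h background the values were 0.94, 0.93 and 0.92. These correlations are descriptions: the points share one cell line, one genome and the same peak calling. Listing needed a fold of 6 over both the untreated library and the local region, which can tie the 2 measures through the 1 h tags. Median 1 h tags were 24.55, 22.5, 22.7 and 20.75 on chromosomes 15, 10, 3 and 7, and 13.4 and 13.45 on chromosomes 12 and X. The part of the listing rule in the correlations was not tested. The amount of DNA per region was not measured here, since the input library was not used here, and its part in the result was not tested.

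**Figure D2:**
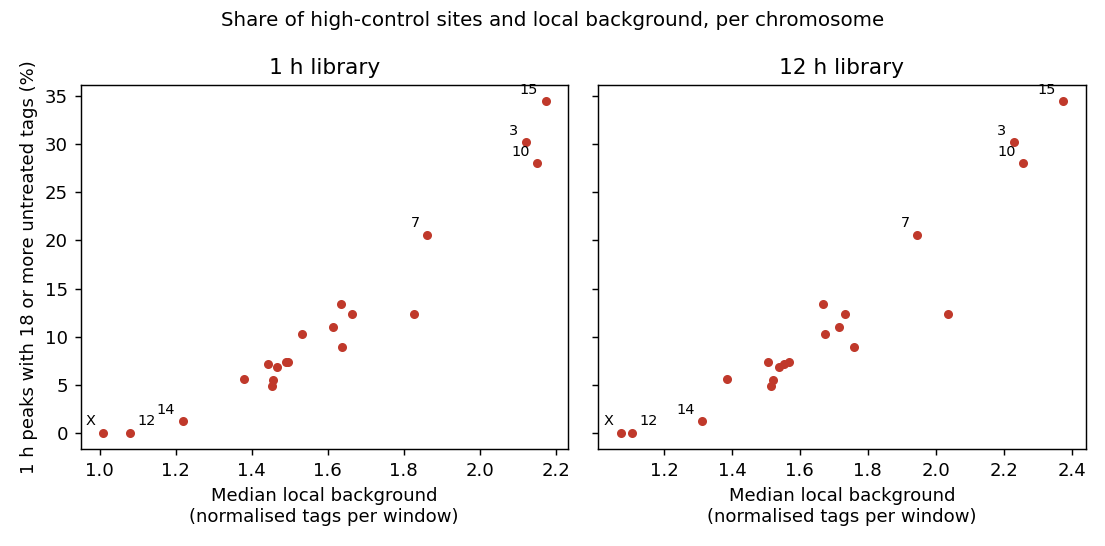
Share of the 1 h peaks that were high-control sites against the median local background, 1 point per chromosome, for the 1 h library (left) and the 12 h library (right). Chromosomes 12 and X sit at 0% and about 1 normalised tag per window, and chromosomes 3, 10 and 15 at 28.0% to 34.5% and above 2.1.

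Within chromosomes the sites were grouped as well. The clearest case was chromosome 4, where 42 of the 43 high-control sites lay among the 172 sites below 90 Mb and 1 among the 148 above it, a boundary chosen after the values were seen. Below it the untreated median was 14 tags (quartiles 10 and 17), and above it 7 (4 and 9.25). The local background fell from 2.03 to 1.02 normalised tags per window in the 1 h library and from 2.33 to 1.10 at the 12 h peaks. Of 140 stretches of 10 Mb with at least 20 sites, 22 held no high-control site and in 16 over 30% of the sites were high-control, 12 of the latter on chromosomes 3, 7, 10 or 15. The densest were 80 to 90 Mb of chromosome 10, with 22 of 41 sites, and 60 to 70 Mb of chromosome 15, with 15 of 28. On chromosome 10 the adjoining stretch from 70 to 80 Mb had 1 of 26, with untreated medians of 18 and 11.5 tags in the pair. The last stretch of chromosome 1, from 190 Mb, had 10 of 24. The variance of the untreated counts, which equals the mean under counting error alone, was 2.51 times the mean over all sites and 1.54 (chromosome 12) to 3.37 times (chromosome 4) within a chromosome.

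The nearest other site was more often high-control beside a high-control site than beside a low-control one, though in most cases it was not. The shares are pooled over chromosomes, which themselves differed (20.6% to 34.5% high-control on chromosomes 3, 7, 10 and 15, against 12.3% of all sites). They therefore include that difference, and how much of the contrast lay within chromosomes was not tested. For the 430 high-control sites whose nearest other site lay 5 to 100 kb away, that neighbour held a median of 13 untreated tags and was itself high-control in 25.1% of cases. For the 2746 low-control sites with a neighbour at that distance the values were 11 tags and 12.3%. At 100 kb to 1 Mb the shares were 21.5% and 10.4%, and under 5 kb, where the 10 kb local region covers both, 38.6% of 57 and 10.4% of 338. On each of the 18 chromosomes with high-control sites, their median local background at 1 h was above that of the low-control sites there. Those medians were not taken at like 1 h tags.

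At 1 h the high-control sites were stronger than the others, in a comparison that the listing rule shapes. They held 13.7 to 339.6 normalised tags, with a median of 28.2 (quartiles 20.9 and 45.4), against 17.0 (12.0 and 28.5) at the low-control sites. The caller kept a site where its fold over the untreated library was 6 or more, so 18 untreated tags required 13.6 normalised tags at 1 h and 30 tags required 22.7, whereas sites with few untreated tags could be listed down to 7.51. Over the untreated library the median fold was 10.3 at the high-control and 15 at the low-control sites, and the highest folds were 108 and 661. The control count divides that fold, so this difference belongs to the choice of sites. The fold over the local 10 kb, whose value does not use the untreated library, had medians of 13.1 and 11.2. The sites compared had still passed the fold over that library, which kept weaker high-control sites out. The listing rule therefore shapes this comparison too. The focus ratio, the caller's measure of how sharply tags flank the centre, was 0.833 and 0.842.

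**Figure D3:**
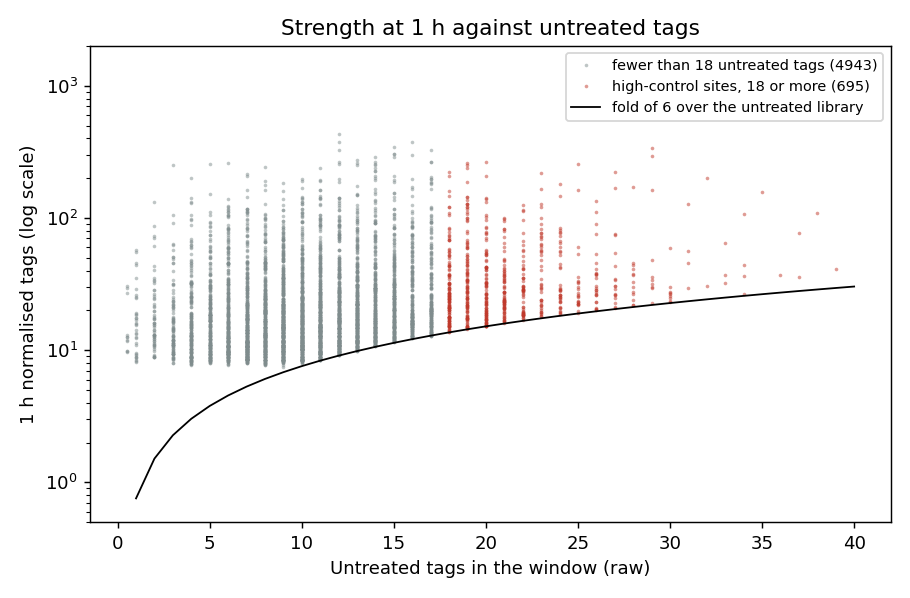
Normalised tags at 1 h (log axis) against raw untreated tags for all 5638 sites, 1 point per site, with high-control sites in red. The curve is the minimum fold of 6 over the untreated library, and the high-control sites lie above it, from 13.7 to 339.6 tags.

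High-control sites made up 24 of the 100 highest scoring 1 h sites and 1 of the leading 10, beside 12.3% of all sites. The limit on the fold keeps them from the low end of the scores, so these counts share the bias of the tag comparison. The strongest lay inside Hhat, the acyltransferase gene of hedgehog ligands (chromosome 1, 192733028 to 192733310), and held 29 raw tags (3.66 normalised) untreated, 339.6 normalised tags at 1 h and 210.1 at 12 h. The next, 338 kb from the nucleotidase gene Bpnt2 on chromosome 4, also had 29 raw tags, then 297 and 219 normalised tags. The site inside Micall1, an endosomal trafficking gene, had 20 raw tags, then 263 and 173. At these sites the untreated level was a small part of the 1 h level, and 12 h lay between. The site 91.0 kb from Adra1b, an adrenergic receptor gene, had 25 raw tags and held 257 and 256 normalised tags at the 2 times. Those near Tpbpa (259 and 98.8), Ccdc162 (253 and 113), Col3a1, a fibrillar collagen gene (238 and 89.0), Wee1, a mitotic inhibitor kinase gene (222 and 166), and Tarm1 (220 and 146) held 19, 19, 19, 27 and 23 raw tags untreated. Of these 9, which are among the 10 highest scoring of the class (the eighth is not described), 8 were lower at 12 h and the Adra1b site was level.

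The sites with most untreated tags were not the strongest after hormone. The highest count, 39 raw tags (exact Poisson interval 27.7 to 53.3, or 4.92 normalised tags), was at a site inside Pmepa1, a gene for a membrane protein that restrains TGF-beta signalling (chromosome 2, 173263668 to 173263950). It held 41.4 normalised tags at 1 h and was not listed at 12 h, where a fold of 6 over those 39 tags would have needed 29.5. The site 315 kb from Nr2f2, which encodes an orphan nuclear receptor, had 38 raw tags (26.9 to 52.2), then 109 and 72.2 normalised tags. The site inside Ly6f, of a family of surface proteins, had 37 raw tags, then 77.1 and 44.1. The intervals of the 3 counts overlapped each other.

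The site inside Otogl, an inner ear matrix gene, had 37 raw tags, then 36.0 and 39.4 normalised tags. Near Pmch, the melanin-concentrating hormone gene, a site 12.6 kb away had 35 raw tags, then 157 and 144. The site 2.36 kb from Fes, a tyrosine kinase gene, had 34 raw tags, then 107 and 60.8. A pair of adjacent sites inside Susd1 had 34 raw tags each, with 44.3 and 36.6 normalised tags at 1 h; the first held 30 at 12 h and the second was not listed. Sites inside Veph1 (36 raw tags, 37.3 at 1 h) and 56.1 kb from Cops8, a signalosome subunit gene (34 and 26.7), were not listed at 12 h either. Of the 10 sites, 6 were listed at 12 h, beside 47.6% of all high-control sites and 43.2% of all 1 h sites. The 4 unlisted ones held between 26.7 and 41.4 normalised tags at 1 h.

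**Figure D4:**
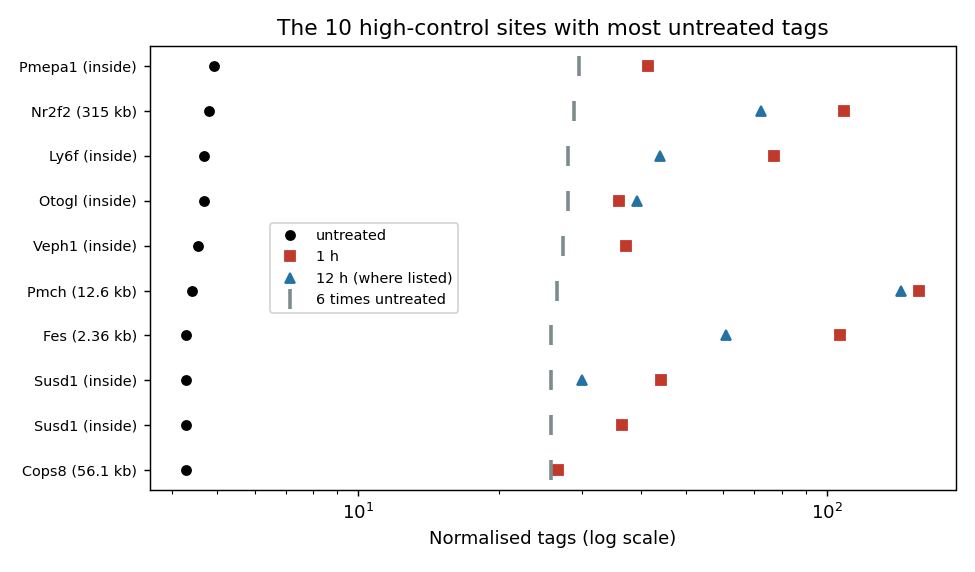
Normalised tags (log axis) of the 10 high-control sites with most untreated tags: untreated (circles), 1 h (squares) and 12 h where listed (triangles). The grey marks are 6 times the untreated level, which lies at 25.8 to 29.5 tags, and the Cops8 site at 1 h, 26.7, is the closest to it.

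Listing at 12 h was compared at like strength. Of the high-control sites 331 of 695 overlapped a 12 h peak by 1 bp or more (47.6%, Wilson interval 43.9 to 51.3%), against 2105 of 4943 low-control sites (42.6%, 41.2 to 44%) and 43.2% of all 1 h sites; the 331 partners were 11.5% of the 2883 peaks at 12 h. When low-control sites were weighted to the same 10 strata of 1 h normalised tags, 62.9% of them were listed. The difference was then -15.2 percentage points (95% interval -18.8 to -11.7). In each of the 10 strata the share was lower among high-control sites. From 13.7 to 17.1 tags it was 10 of 66 (15.2%) against 236 of 811 (29.1%), from 32.5 to 40.6 tags 38 of 70 (54.3%) against 203 of 259 (78.4%), and from 83.7 tags upward 67 of 70 (95.7%) against 256 of 263 (97.3%).

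The untreated library enters this comparison on both sides, since it was the control of the 12 h list as well. A site with 20 untreated tags in its 12 h window needed 15.2 normalised tags there for a fold of 6, and one with 10 tags needed 7.58. The 12 h windows were 302 bp wide, against 282 bp at 1 h, and their untreated tags can differ. Needs given for named sites use the 1 h windows and are approximate. At 1 h 415 high-control sites (59.7%) stood under a fold of 12, against 37.1% of the low-control sites, and among those not listed at 12 h it was 289 of 364 (79.4%) against 51.2%. Weighted to 10 strata of that fold in place of tags, the difference turned to 15.2 points in favour of the high-control sites (11.8 to 18.6), whose 1 h tags were then higher in every stratum. With no strata it was 5.04 points (1.08 to 9.00). Among sites at a fold of 12 or more over both the untreated library and the local region, at like tags, 76.3% of 253 high-control sites and 88.1% of low-control sites were listed (difference -11.8, -16.8 to -6.69). Within chromosomes, in 3 levels of tags, the difference was -11.1 points (-14.9 to -7.38). A change in receptor binding and this limit on listing cannot be told apart in the share listed.

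**Figure D5:**
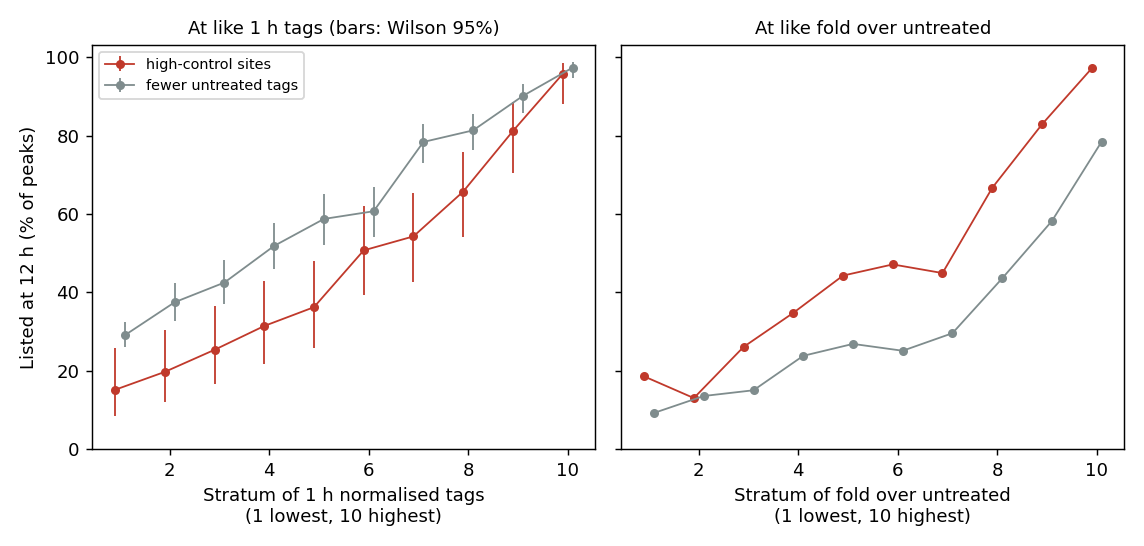
Share of 1 h sites listed at 12 h for high-control (red) and low-control sites (grey), in 10 strata cut at the deciles of the high-control sites. On the left strata are of 1 h normalised tags, with Wilson 95% intervals, and red lies under grey in each. On the right they are of the fold over the untreated library, and red lies above grey in 9 of 10.

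Within the class the share listed was similar at all levels of untreated tags, with overlapping intervals. With 18 to 20 tags 170 of 357 sites were listed at 12 h (47.6%), with 21 to 23 tags 86 of 181 (47.5%), with 24 to 29 tags 61 of 129 (47.3%) and with 30 or more 14 of 28 (50%, 32.6 to 67.4%). Their median 1 h tags were 26.3, 28.2, 29.8 and 36.8. The strongest high-control sites missing from the 12 h list were a second site inside Hhat (147 normalised tags at 1 h), 69.8 kb from Cpe, a carboxypeptidase gene (122), 20.02 kb from Supt20 (83.9), 182 kb from Eea1, an early endosome gene (78.7), and inside Syn3 (70.8). A fold of 6 at 12 h over the untreated tags of their 1 h windows would have needed 15.2 to 18.2 tags there. Their 1 h folds over the local region were 9.42 at Hhat and 22.96 to 41.3 at the others, against a minimum of 6, and what kept each off the 12 h list was not tested.

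Where a high-control site was listed at both times, 12 h was usually lower. The log2 ratio of 12 h over 1 h had a median of -0.43 (quartiles -0.87 and -0.04), with 257 sites lower and 74 higher. At the 2105 shared low-control sites the median was -0.50, with 1624 lower and 481 higher. Over all 2436 shared sites 1881 were lower and 555 higher, so lower values were usual in both classes. Exact binomial 95% intervals from the tags, which cover counting error only, lay below 0 at 209 of the 331 high-control sites, above 0 at 39 and held 0 at 83. They were counted for high-control sites only. At least 2-fold lower were 76 (22.96%, against 24.5% of all 2436 shared sites), and at least 2-fold higher 3 (0.906%, against 1.44%). Sites that fell below a fold of 6 at 12 h have no ratio, and that limit is higher for high-control sites. In the weakest stratum the medians were 0.31 and -0.16, over the 10 and 236 sites that were listed. In the strongest stratum, where nearly all sites were listed in both classes, the medians were -0.74 for 67 and -0.87 for 256 sites, and in the next -0.86 for 56 and -0.87 for 219.

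The lowest ratio was at a site 17.9 kb from Armc12 and 26.8 kb before the start of Fkbp5, which encodes an HSP90 co-chaperone that restrains GR (chromosome 17, 28512846 to 28513128). It held 20 raw tags untreated, and its normalised tags went from 140 to 18.9 (log2 ratio -2.88, -3.11 to -2.66). The site inside Itgb6, an epithelial integrin gene, went from 160 to 33.4 tags (-2.26, -2.44 to -2.09), and the one inside Parva, an actin and integrin adaptor gene, from 117 to 25.6 (-2.19, -2.39 to -1.99). A site 22.1 kb from Dnajb12 and 30.3 kb from the start of the stress gene Ddit4 went from 80.2 to 18 (-2.15), and one over 1 Mb from Gata3 from 77.3 to 16.4 (-2.24). At these 5 sites the untreated count was 18 to 20 raw tags. The highest ratios were at a site 16.9 kb from Lamtor5, a subunit gene of the lysosomal complex that activates mTORC1, with 32.9 and 81.1 tags (1.30, 1.108 to 1.499), at one 476 kb from 2610301B20Rik (20.8 and 46.6) and inside Glis3, a zinc finger factor gene (15.1 and 34.0). Inside Foxp1, a forkhead factor gene, 98.9 tags at 1 h compared with 186 at 12 h (0.91, 0.79 to 1.03), and inside Slc24a3 16.7 with 29.2. Their untreated counts were 18 to 21 raw tags. Both groups were picked by their ratio, so their opposite directions follow from that choice.

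In position relative to genes the high-control sites did not stand apart. Inside a protein-coding gene lay 279 of 695 (40.1%, Wilson interval 36.6 to 43.8%), against 43.1% of the low-control sites weighted to the same strata of tags, a difference of -3.00 points (-7.06 to 1.06). Within 1 kb of the start of a protein-coding gene lay 12 of 686 (1.75%) against 2.12%, a difference of -0.37 points (-1.48 to 0.75), and within 5 kb 58 (8.46%) against 8.91% (-0.46, -2.79 to 1.87). More than 100 kb from any such gene lay 130 (18.7%) against 16.0% (2.69, -0.50 to 5.87). Each interval held 0, and the differences in them could be of either sign. The median distance to the nearest start was 66.1 kb for high-control and 55.8 kb for low-control sites. Starts were known for 17492 of 21887 protein-coding genes, so distances are upper limits. The table of starts holds none for 1 chromosome, and the sites there have no distance, which leaves 686 of the 695 high-control and 4790 of the 4943 low-control sites.

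The 12 high-control sites within 1 kb of a start held 14.8 to 163.5 normalised tags at 1 h. Of them 4 were listed at 12 h, beside 47.6% of all high-control sites and 43.2% of all 1 h sites. Of the 10 with most untreated tags within 1 kb of a start, the one 643 bp into Isg20, an interferon-stimulated exonuclease gene (chromosome 7, 78914737 to 78915019), held 25 raw tags, then 163.5 and 44.9 normalised tags (log2 ratio -1.86, -2.02 to -1.71). The one 478 bp into Per1, a repressor of the circadian clock (chromosome 11, 69099286 to 69099568), held 19 raw tags, then 128.5 and 43.5. The one 661 bp before A930018P22Rik had 24 raw tags, then 56.0 and 19.7. These 3 were listed at both times and were lower at 12 h, with log2 ratios of -1.504 to -1.865. The other 7, at Tmem167b, Stx7, Fam214b, Eva1c, Glt28d2, Ehbp1 and Lgals2, held 19 to 33 raw tags and 14.8 to 37.0 normalised tags at 1 h, and were not listed at 12 h. Their folds over the untreated library at 1 h were 6.02 to 13.8. The last 2 of the 12, outside the rule for named sites and given to complete the set, held 18 raw tags each: the one at Ip6k2 went from 70.5 to 21 normalised tags, and the one at Dap held 15.2 at 1 h and was not listed at 12 h.

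High-control sites lay within 25 kb of 527 of 21887 protein-coding genes (2.41%), while a 1 h site of any kind lay within 25 kb of 16.9%. Of 28 core glucocorticoid target genes 22 had a 1 h site in that range and 4 a high-control one. Beside Per1 these were Zbtb16, a glucocorticoid-induced zinc finger factor gene, where the site at 48786814 to 48787096 on chromosome 9 held 19 raw tags, then 65.3 and 96.7 normalised tags (0.57), and Fkbp5 and Angptl4. The Fkbp5 site inside the gene (chromosome 17, 28463913 to 28464195) held 18 raw tags and 43.4 normalised tags at 1 h, and the one 2.09 kb from Angptl4, a lipoprotein lipase inhibitor gene, 21 and 18. Both were absent at 12 h. Of the 4 genes, then, 1 had a higher and 1 a lower 12 h value, and for 2 the list gives no value.

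Circadian clock genes had a high-control site at 3 of 19 (8 with any 1 h site): Per1, Tef, an output factor gene with a pair of sites of 19 raw tags each and 33.6 and 21 normalised tags at 1 h, and Dbp, another output factor gene, 24.9 kb from a site of 23 raw and 52.2 normalised tags inside Sec1. The Tef and Dbp sites were not listed at 12 h. Actin, adhesion and matrix genes had 4 of 19 (11 with any). Mical2, a monooxygenase gene acting on actin, had 3 of its 7 sites in the class, none of them listed at 12 h, and the pair with most untreated tags held 29 and 22 raw tags and 31.6 and 18.3 normalised tags at 1 h. Tns1, which links actin to integrins, had 2 of 11, and the stronger held 24 raw tags, then 81.6 and 45.0 normalised tags. Sparc, a matrix glycoprotein gene, had its only site in the class (27 raw, 21.3 at 1 h, not listed at 12 h), and the Col3a1 site is given above.

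Keratin and mammary epithelial genes had 3 of 20 (3 with any): Krt7 on chromosome 15 held 19 raw tags, then 110.5 and 66.2 normalised tags (-0.74), and a site of 19 raw tags, then 28.9 and 27.5, lay within reach of both Krt8 and Krt18. These keratin genes lie on chromosome 15, the one with the highest share of high-control sites. AP-1 and immediate early genes (0 of 18, 6 with any 1 h site), housekeeping genes (0 of 18, 6 with any), receptor and chaperone genes (0 of 17, 5 with any) and immune markers (0 of 15, 1 with any) had no high-control site within 25 kb. The counts are small, and nothing particular to a list is read from them.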

How the data were processed

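The submitters' processing notes name bcl2fastq 2.17, Bowtie2 2.2.6, HOMER and the build mm10. Each library had its own HOMER peak call, per the file headers, with the untreated ChIP library as control of both treated lists. The authors deposited for each peak the normalised tag count and the control tags (signal, with 0.5 written at 11 sites and read as no tag), fold ratios over control and over the local 10 kb, a focus ratio (a fraction), a score, p-values that were not used, and for the untreated list a whole tag count.

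Raw treated tags were recovered from the deposited scaled tags (100% whole within 0.1 of a tag). Local background is the normalised tag count divided by the local fold, and includes neighbouring peaks. Shares have Wilson 95% intervals. Differences of shares were weighted to 10 strata at the deciles of the high-control sites, with a normal 95% interval that treats sites as independent, tested on simulated data. Genes and starts came from RefSeq GRCm38.p6. Named sites are the 10 with most control tags, the 10 with the highest score, the 5 strongest unlisted at 12 h, the 5 lowest and highest ratios, 10 near starts, and up to 4 per gene list; 1 of the second set is not reported here. The sites, lists and limits were chosen with earlier results of these data known. Python 3.11.15, scipy 1.17.1 and pandas 2.3.3 were used.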

Additional observations from a re-analysis of the deposited data

Results flagged for a closer look

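The untreated list, which served only to check the label of the sites, held 1 peak that stood 44.2-fold over its input control, at 106186881 to 106187023 on chromosome X, with 317 raw tags. None of the 134 sites at 1 h on that chromosome was a high-control site. The file header names an untreated input as that control, while the label of the input sample gives corticosterone, so which input stands behind the fold is uncertain.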

How the results depend on the processing

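The shares rest on 1 library per condition and on control counts of 0 to 39 tags, so membership near the limit is within counting error. Limits of 15 or 24 untreated tags gave 1372 and 157 sites. The difference in the share listed at 12 h turned from -15.2 to 5.04 percentage points with no strata, and to 15.2 with strata of the fold over the untreated library; under the other 10 alternatives it stayed negative, with an interval below 0 (-18.8 to -11.1). The differences in the shares inside a gene and within 1 kb of a start had intervals that held 0 under each alternative run. The median log2 ratio moved from -0.43 to -0.27 with 24 or more tags and to -0.53 per base of the window, and the cause was not tested for the first; the second follows from the wider 12 h windows. Within 100 kb 1411 genes had a high-control site. Strata by chromosome, by fold, and the removal of chromosomes 3, 7, 10 and 15 were chosen after seeing the data. No paired analysis was possible because each condition had 1 library, and no replicate could be left out.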

Other observations

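The 12 h list gives the untreated tags of its own, wider windows. There 457 of 2883 peaks (15.9%) held 18 or more raw tags, of which 396 overlapped a 1 h site, 310 of these a high-control one, and 61 had no 1 h partner. These counts come from the same untreated library and are no independent measure of it. The sites with the fewest untreated tags give the opposite end of the scale: 11 sites had no tag and 34 had 1, with medians of 12.5 and 15.7 normalised tags at 1 h and local backgrounds of 0.998 and 1.24 normalised tags per window.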
